A study of Drosophila melanogaster with 4 samples.

Results

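Isolated scute peaks are the sites of scute ChIP enrichment in the Drosophila melanogaster embryo that stood alone along the chromosome. They were chosen by the measured positions of the peaks: a peak was a member when no other peak midpoint lay within 10 kb on the same chromosome arm. On the 5 main arms (X, 2L, 2R, 3L and 3R), 578 of 2006 peaks met this rule, or 28.8% (exact 95% interval 26.8 to 30.9). The other 1428 peaks, each with at least 1 neighbour within 10 kb, served as the comparison. Of these, 860 lay in groups of 2 to 4 peaks and 568 in groups of 5 or more. The whole list holds 2136 peaks, and the 130 on chromosome 4 and on the unplaced sequences U and Uextra were not used.

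The chromatin came from whole embryos of the Y cn bw sp stock, collected from 0 to 12 h after egg laying and fixed in 1.8% formaldehyde. The study holds 2 libraries immunoprecipitated with a crude polyclonal guinea pig serum named after its target, scute, and 2 libraries of input DNA. All 4 libraries share 1 genotype. On the X it carries y[1] and oc[R3.2], and on chromosome 2 it carries cn[1], bw[1], sp[1], Gr22b[1], Gr22d[1] and CG33964[R4.2]. The alleles on chromosome 3 are Rh6[1], GstD5[1], LysC[1], MstProx[1] and lab[R4.2]. Both kinds of library are represented by 1 peak list with no value per library. Depth per library is therefore unknown, no error between replicates exists for any value below, and whether a peak reflects binding of the Scute protein was not tested. Whole embryos of a 12 h window mix many cell types and stages, so a peak cannot be assigned to any of them.

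Scute, encoded on the X within the achaete-scute complex, belongs to the basic helix-loop-helix family of transcription factors. With its partner Daughterless it binds short DNA motifs known as E-boxes and gives ectodermal cells the competence to become neural precursors. In the early embryo it also serves as one of the X-linked signal elements that tell embryos with differing X dose apart in sex determination. Regulatory regions of developmental genes in flies often hold several binding regions close together, while other sites lie far from any neighbour. Genes beside the peaks were not identified here, because no annotation of the genome release of the list was used. Peaks are therefore given by their position on FlyBase release 5.

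Isolated peaks lay a median of 32.9 kb from the nearest other peak, with an interquartile range of 17.6 to 70.3 kb. For peaks with a neighbour, the median was 1.26 kb and the interquartile range 0.680 to 2.96 kb. These distances describe the rule and are no result of a comparison. The distances ran on across the 10 kb limit without a gap. From 10 to 11 kb there were 28 peaks, and from 9 to 10 kb there were 27. A limit of 10 kb thus cuts a continuous range, and it does not separate a distinct class of peaks.

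**Figure D1:**
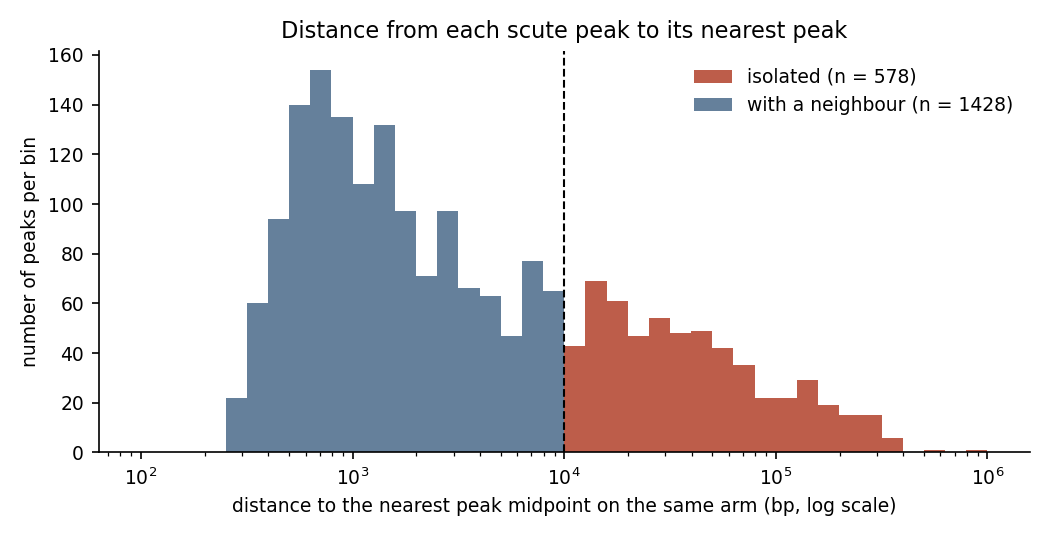
Histogram of the distance (bp, log scale) from each peak midpoint to the nearest other midpoint on the same arm, for 578 isolated peaks (red) and 1428 peaks with a neighbour (blue), with the 10 kb limit as a dashed line. Isolated peaks continue the range of distances beyond the line, with a median of 32.9 kb and a maximum of 867 kb, while peaks with a neighbour have a median of 1.26 kb.

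The 5 members closest to the limit all scored below the median of isolated peaks, which was 11.67. The wider class of 28 peaks from 10 to 11 kb had a median score of 11.43. The 5 just inside the limit lay between 10.02 and 10.14 kb from their nearest peak and had scores of 10.37, 10.55, 6.33, 8.4 and 8.52. The score is read as −log10 of a p-value, as described under the processing. The member with 6.33, on 2L from 10216449 to 10216694, was the weakest isolated peak of all. Of the 5 peaks just outside the limit, between 9.82 and 9.99 kb from their nearest peak, the scores were 16.73, 9.43, 8.66, 26.51 and 10.37. The scores of these 2 small sets overlapped, from 6.33 to 10.55 inside and from 8.66 to 26.51 outside.

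At the other end of the range, 108 isolated peaks (18.7%) had no other peak within 100 kb and 38 had none within 200 kb. The most remote was on the X from 13888836 to 13889404, with the next peaks 867 kb below and 1454 kb above it. Its score of 57.11 was also the 13th highest on the main arms. The next in remoteness, on 2L from 17472468 to 17472947, lay 584 kb from its nearest peak and had a score of 19.52. The remaining 3 of the 5 most remote peaks were lower. On the X, the peak from 13022506 to 13022714 (393 kb from its nearest) scored 8.83 and the one from 20122667 to 20123123 (362 kb) scored 12.35. On 2L, the peak from 16888770 to 16889243 (361 kb) scored 9.43. Remote peaks therefore included one of the strongest of the list as well as weak ones.

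Height and width did not follow remoteness within the isolated peaks. The median score was 11.43 among the 100 peaks from 10 to 15 kb (order-statistic 95% interval 10.69 to 13.75) and 12.20 among the 108 beyond 100 kb (11.18 to 13.04). The median widths in these classes were 304 and 295 bp. Across the 578 members Spearman's rho of distance with score was 0.036 and with width −0.010, given as descriptions over peaks of 1 list. Composition by arm did change with distance: the X supplied 7 of the 100 members from 10 to 15 kb and 35 of the 108 beyond 100 kb (32.4%). Score and width rose together within the members (Spearman's rho 0.61, Pearson's r 0.60), as they did among peaks with a neighbour (rho 0.59, r 0.57). Both are read from the same pileup of fragments, so part of that relation is built in.

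Isolated peaks had nearly the same height as peaks with a neighbour. Their median score was 11.67 (95% interval 11.19 to 12.20, range 6.33 to 76.84, n = 578), against 11.34 for peaks with a neighbour (11.34 to 11.67, range 6.07 to 139.55, n = 1428). The shift between both sets, the median of all pairwise differences (Hodges-Lehmann), was 0.28 with a rank-based 95% interval of −0.11 to 0.60. The interval includes 0 and ends at 0.60, a small step beside the interquartile range of 9.43 to 15.59 in isolated peaks. Set against peaks in groups of 2 to 4, the shift was 0.22 (−0.24 to 0.61), and against groups of 5 or more it was 0.30 (−0.19 to 0.65). All these intervals cover the spread among peaks of 1 list, not that between embryo collections, and they take peaks as independent although neighbours share surroundings. With each chain of neighboured peaks as 1 unit, given the median score of its peaks, the shift was −0.11 (−0.525 to 0.32). Medians of several peaks are set there against single peaks, so part of the change can be built in.

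In terms of fragments, most isolated peaks were modest. For 454 of the 578 the score matched a Poisson tail over a genome-wide background of 50.1 overlapping fragments, which gives the pileup at the peak. The median pileup was 107 fragments, or 2.13-fold over that background (interquartile range 1.99 to 2.39, range 1.75 to 4.61). Among peaks with a neighbour, 1062 matched, with a median pileup of 106 fragments or 2.11-fold (1.99 to 2.29, range 1.74 to 6.30). The interquartile ranges of both sets thus covered almost the same enrichment, and the highest fold was larger among peaks with a neighbour. Pileup and fold are converted from the score, so they restate the comparison of scores for the matched peaks and are no separate measure.

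The arms did not all show the same ordering of both sets. Isolated peaks had the higher median score on the X, 2R and 3R, and peaks with a neighbour had it on 2L and 3L. On the X the median was 13.04 in isolated peaks (n = 79) and 11.34 in peaks with a neighbour (n = 66), a shift of 0.98 (−0.35 to 2.61). On 2R the medians were 12.32 and 11.41 in the same order (shift 0.61, −0.30 to 1.39), and on 3R 11.65 and 11.34 (shift 0.33, −0.29 to 1). On 2L the isolated peaks had a median of 11.01 and the others 11.67 (shift −0.52, −1.29 to 0.29), and on 3L the values were 11.17 and 11.34 (shift −0.31, −1 to 0.45). Every interval of a single arm included 0. Over the 4 large autosome arms together the shift was 0.00 (−0.31 to 0.38), with a median of 11.34 in 499 isolated peaks and also in the 1362 others.

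**Figure D2:**
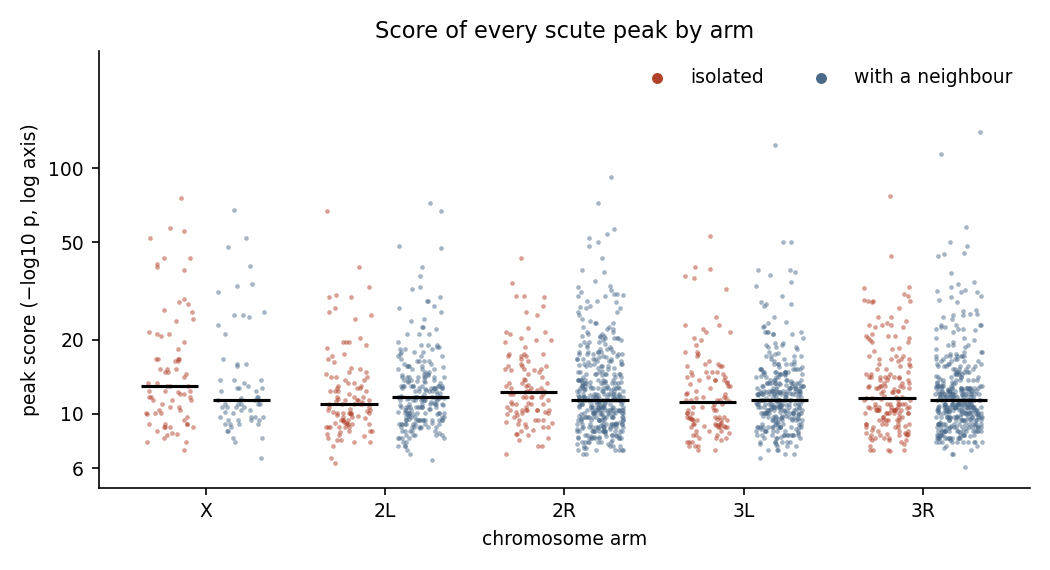
Score (−log10 p, log axis) of every peak on each main arm, isolated peaks in red to the left and peaks with a neighbour in blue to the right, with black bars at the medians. The sets overlap over most of their range on every arm, and the isolated median is highest on the X at 13.04.

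Isolated peaks were slightly narrower on the autosome arms and wider on the X. Over all 5 arms the median width was 306 bp in isolated peaks (middle 50% from 239 to 427 bp, extremes 201 and 1627 bp) and 314 bp in peaks with a neighbour (243 to 441 bp, extremes 201 and 1852 bp). The shift was −6 bp with an interval of −17 to 2 bp. With each chain of neighboured peaks as 1 unit, given the median width of its peaks, it was −19 bp (−31 to −6 bp). Medians of several peaks are set there against single peaks, so part of that value can be built in. On the autosome arms, with single peaks in both sets, the shift was −11 bp (−22 to −1 bp), with medians of 305 and 315 bp. On the X it was 38 bp (2 to 71 bp), with a median of 320 bp in isolated peaks and 271 bp in the others. The 2L arm went the other way, with medians of 286 and 328 bp and a shift of −34 bp (−64 to −8 bp). The shifts on 2R (14 bp, −12 to 46 bp), 3L (−16 bp, −38 to 2 bp) and 3R (−7 bp, −27 to 9 bp) had intervals that included 0. Only 4 isolated peaks (0.692%) were wider than 1000 bp, against 29 of the others (2.03%). These shifts are small beside the spread of widths within each set, which had an SD of 184 bp in isolated peaks and 213 bp in the others.

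**Figure D3:**
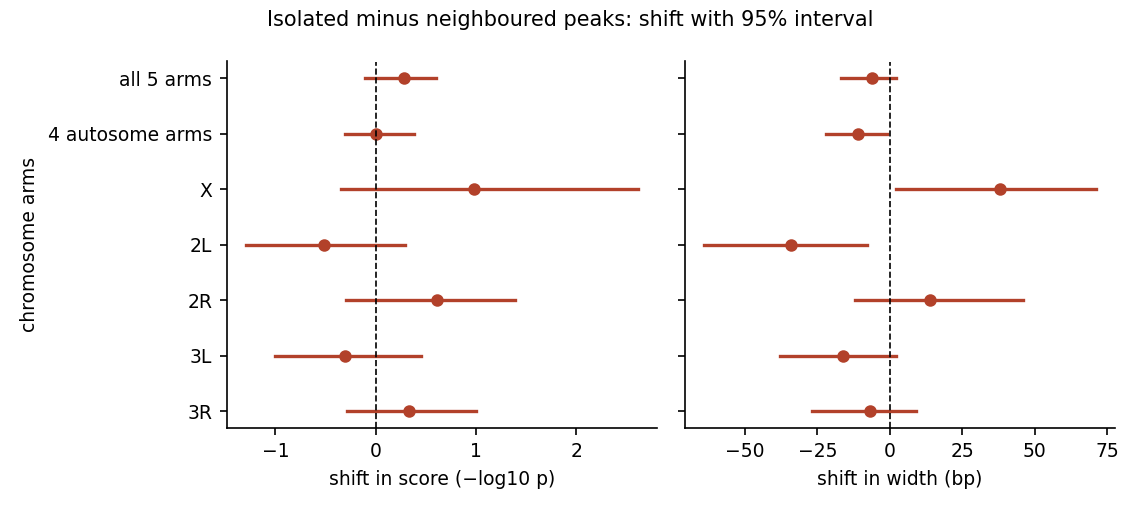
Hodges-Lehmann shift of isolated minus neighboured peaks with its 95% interval, for score (left, −log10 p) and width (right, bp), over all arms, over the 4 autosome arms and for each arm. All score intervals include 0, while the width interval lies above 0 on the X (38 bp, 2 to 71 bp) and below 0 on 2L (−34 bp, −64 to −8 bp).

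Scores of 20 or more were somewhat more common among isolated peaks, a limit chosen after the scores had been seen. They made up 84 of 578 isolated peaks (14.5%, exact interval 11.8 to 17.7) and 154 of 1428 peaks with a neighbour (10.8%, 9.22 to 12.5), a difference of 3.75 percentage points (Newcombe 95% interval 0.601 to 7.20). At a score of 15 or more the shares were 27.5% and 22.3%, and the difference was 5.24 points (1.10 to 9.56). At a score of 30 or more they were 5.02% and 4.34%, and the difference was 0.676 points (−1.24 to 2.97). The X weighs more among isolated peaks, with 13.7% of them against 4.62% of peaks with a neighbour. Without the X the difference at a score of 20 was 2.47 points (−0.694 to 6.03), from 12.8% and 10.4%. On the X alone the shares were 25.3% of isolated peaks and 19.7% of the others, a difference of 5.62 points (−8.27 to 18.8). The excess was thus seen over all arms together, and not with an interval above 0 on the X or the autosome arms taken alone.

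Among peaks of similar width, the shift in score had an interval above 0 in the widest class alone, and there only with the X and the autosome arms together. All peaks were divided by width into 4 classes of about equal size. In the class from 440 to 1852 bp, the median score was 17.96 in 139 isolated peaks and 16.35 in 363 others, a shift of 1.5 (0.29 to 2.91). Their median widths were 567 and 586 bp. On the autosome arms alone this shift was 1.28 with an interval that reached down to 0 (0.00 to 2.67). On the X alone it was −0.35 (−7.24 to 9.32), in 28 isolated and 17 other peaks. The value over all arms exceeds both, and the X weighs more in the isolated set. In the class from 201 to 242 bp the shift was 0.00 (−0.31 to 0.34), and in that from 243 to 312 bp it was 0.00 (−0.56 to 0.42). From 313 to 439 bp it was 0.66 (0.00 to 1.41). Differences between these shifts were not tested.

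The share of scores that matched the genome-wide background was 78.5% in isolated peaks (454 of 578) and 74.4% in peaks with a neighbour (1062 of 1428). An unmatched score can mean that MACS used a larger local background, or that the value deviates numerically by slightly more than the tolerance. The difference of 4.18 points had an interval from 0.0198 to 8.10, close to 0 at its lower end. It was 2.86 points (−1.68 to 7.12) without the X, where 92.4% matched in both sets. With a tolerance of 0.02 in place of 0.01, the shares were 81.7% and 79.8% and the difference 1.83 points (−2.08 to 5.48). A difference in local background between both sets was therefore not established.

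The X supplied more of the strongest isolated peaks than of all isolated peaks. Of the 15 highest-scoring members, 8 lay on the X, which holds 13.7% of the set, 2 each on 2L, 3L and 3R, and 1 on 2R. At a score of 30 or more the X had 9 of 29, and at 20 or more it had 20 of 84. Peaks with a neighbour showed the same pattern. The X holds 4.62% of that set, and it had 7 of 62 and 13 of 154 at these scores. The scores of the 15 ran from 39.45 to 76.84, all 15 matched the genome-wide background, and their widths ran from 425 to 1627 bp with a median of 734 bp. They lay between 11.2 and 867 kb from their nearest peak.

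The highest isolated peak was on 3R from 12759923 to 12760656, 734 bp wide, with a score of 76.84 and a pileup of 231 fragments (4.61-fold). Its neighbours lay 35.4 kb below and 25.8 kb above. It ranked 5th among all main-arm peaks, so the 4 highest peaks of those arms all had a neighbour within 10 kb. The other 3R member of the 15 lay from 4007185 to 4007656 (score 43.79, 3.53-fold), 15.2 kb from the next peak.

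The highest isolated peak on the X, from 17720945 to 17721446, had a score of 75.51 and reached 4.57-fold over 502 bp. The remote peak from 13888836 (score 57.11, 3.99-fold) came next on that arm, and after it the widest isolated peak of all, 1627 bp across, from 19471925 to 19473551, where the score was 55.31 (3.93-fold). A peak from 16110895 to 16111855 scored 51.76 and its nearest neighbour, from 16041654 to 16042190 and 69.5 kb away, scored 43.24. These 2 X peaks were each other's nearest peak. The remaining 3 X members of the 15 lay from 19416403 to 19417206 (43.24), from 18758188 to 18758735 (40.52) and from 8035576 to 8036282 (39.45). Only the last of the 8 lay below 13 Mb.

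On 2L the highest isolated peak lay from 3152403 to 3153503, with a score of 67.05 (4.31-fold) and a width of 1101 bp. It was 11.2 kb from its nearest peak and so lost its place with a limit of 25 kb. With that limit the highest isolated peaks of 3L (19.6 kb from its nearest peak) and 2R (24.0 kb) were also lost. The 3R peak from 4007185 (15.2 kb) was lost as well. A second 2L peak from 66520 to 67441 scored 39.45, and one of the 3 widest members, from 8083455 to 8084708 with 1254 bp, scored 29.81 (2.99-fold). On 3L the highest lay from 1349643 to 1350392 (score 52.93, 3.85-fold) and the second from 377540 to 378435 (39.45). On 2R the highest isolated peak, from 10345461 to 10345885, reached 43.24 (3.51-fold), rank 34 on the main arms. On this arm 0 of 105 isolated peaks and 5 of 395 peaks with a neighbour (1.27%) had scores of 50 or more. The difference of −1.27 points had an interval that included 0 (−2.93 to 2.34). A count of 0 allows a share of up to 2.86% (3 counts, counting error only), and the exact interval ends at 3.45%.

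Among the 100 highest-scoring main-arm peaks, 34 were isolated (exact interval 24.8 to 44.2%), against 28.8% of all main-arm peaks. Among the 500 highest, 166 were isolated (33.2%, 29.1 to 37.5%), with an interval above 28.8%. The X had 17 of the 100 highest peaks, 10 of them isolated, and 48 of the 500 highest, 31 of them isolated. On that arm 54.5% of all peaks were isolated, so the X raises the share among the highest peaks. Intervals for these ranks were not computed without the X. In the isolated set the X median of 13.04 exceeded the autosomal 11.34 by a shift of 1.31 (0.31 to 2.51). Among peaks with a neighbour, both medians were 11.34 and the shift was 0.30 (−0.62 to 1.05). The 90th percentile of isolated peaks was 38.6 on the X and 21.7 on the autosome arms, and that of peaks with a neighbour was 28.7 and 20.4. In both sets the X thus had the higher upper end. Whether the step from autosomes to X differs between both sets was not tested. X and autosomal scores also differ in the share that matched the background, 92.4% of isolated X peaks against 76.4% of isolated autosomal ones, and its part in the shift was not tested.

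Isolated peaks were spread over the large arms at similar densities, while peaks with a neighbour were not. Per Mb there were 4.77 isolated peaks on 2L, 5.01 on 2R, 4.98 on 3L and 6.20 on 3R, against 3.72 on the X. The same arms had 10.2, 18.9, 14.2 and 14.8 neighboured peaks per Mb, and the X had 3.11. The share of peaks that were isolated followed from both. It was highest on the X with 54.5% (exact interval 46.0 to 62.8) and lowest on 2R with 21.0% (17.5 to 24.8). Between them came 2L with 31.8% (26.9 to 37.1), then 3R with 29.5% (25.9 to 33.4), then 3L with 26.0% (21.9 to 30.3). That order is the reverse of the order in peak density apart from 3L and 3R. The rule itself ties the share to density, since a peak in a dense stretch is less likely to be alone. For the same reason, the smaller spread of isolated densities between arms is in part built in. No test was made of either.

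**Figure D4:**
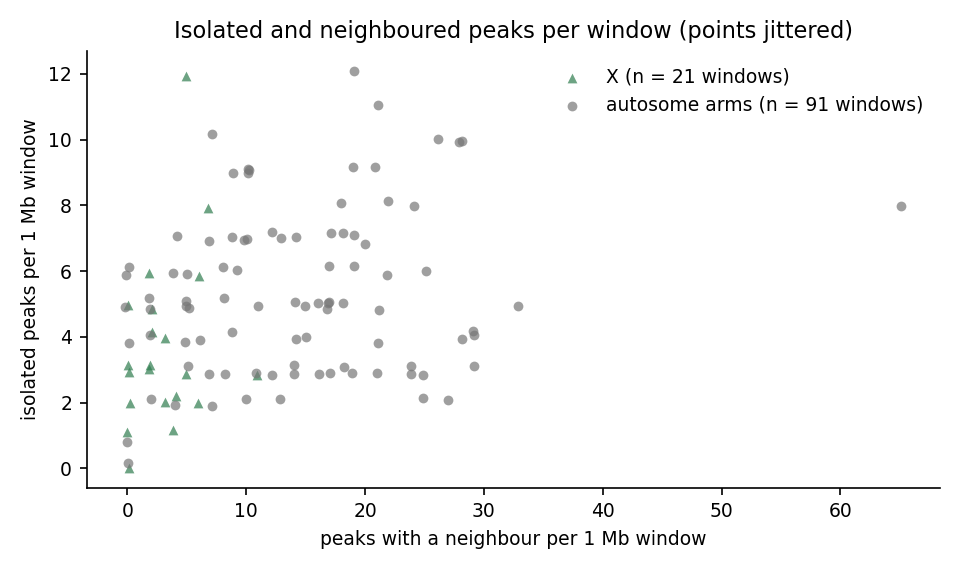
Number of isolated peaks (vertical) against number of peaks with a neighbour (horizontal) in each whole 1 Mb window, for 21 windows of the X (green triangles) and 91 of the autosome arms (grey circles), with points jittered by up to 0.2. Isolated counts stay between 0 and 12 while neighboured counts reach 65.

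In autosomal windows of 1 Mb the counts of isolated peaks varied less than those of neighboured peaks. These windows held 5.33 ± 2.46 isolated peaks (SD, n = 91 windows) and 14.5 ± 9.99 neighboured ones. The variance of the counts was 1.13 times the mean for isolated peaks and 6.90 times the mean for neighboured peaks. The first Mb of 3L, with 65 neighboured peaks, had 8 isolated ones. The highest isolated count, 12, occurred on the X from 19 to 20 Mb, beside 5 neighboured peaks, and on 3R from 4 to 5 Mb, beside 19. X windows held 3.71 ± 2.69 isolated peaks (SD, n = 21 windows) and 3.05 ± 2.89 neighboured ones, with a variance of 1.94 and 2.74 times the mean, so that both sets were closer to each other there. Close grouping is taken out of the isolated set by its definition, so lower variance is in part built in, and its size is a description.

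From the telomere side to the centromere side, the densities of isolated peaks were alike over the autosome arms together, while single arms went opposite ways. Each arm was divided into 3 sections of equal length. Over the autosome arms there were 5.45 isolated peaks per Mb in the distal section, 5.19 in the middle one and 5.26 in the proximal one. Neighboured peaks had 15.97, 14.6 and 12.8 per Mb in the same sections. Both sets were split by the same positions, so a flatter density of isolated peaks is in part built in, and these values are a description. On 2L, the distal section had 5.08 isolated and 15.4 neighboured peaks per Mb, and the proximal one 4.15 and 5.08. The isolated share there was 24.8% distally (exact interval 18.2 to 32.5) and 44.9% proximally (32.9 to 57.4). On 3L the isolated density was 4.72 per Mb distally and 5.51 proximally, against 19.5 and 9.45 for neighboured peaks, and the isolated shares were 19.5% (14.0 to 25.9) and 36.8% (28.0 to 46.4). On 2R isolated peaks had 6.16 per Mb distally and 3.44 proximally, while neighboured peaks had 16.9 and 19.1. The order of the shares was thus the opposite, with 26.7% isolated in the distal section (20.1 to 34.2) and 15.3% in the proximal section (10.05 to 21.9). On 3R both sets were denser proximally, with 5.81 isolated peaks per Mb distally and 7.31 proximally, against 12.8 and 17.1 neighboured ones. The shares of 31.2% distally and 29.96% proximally had intervals that overlapped.

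**Figure D5:**
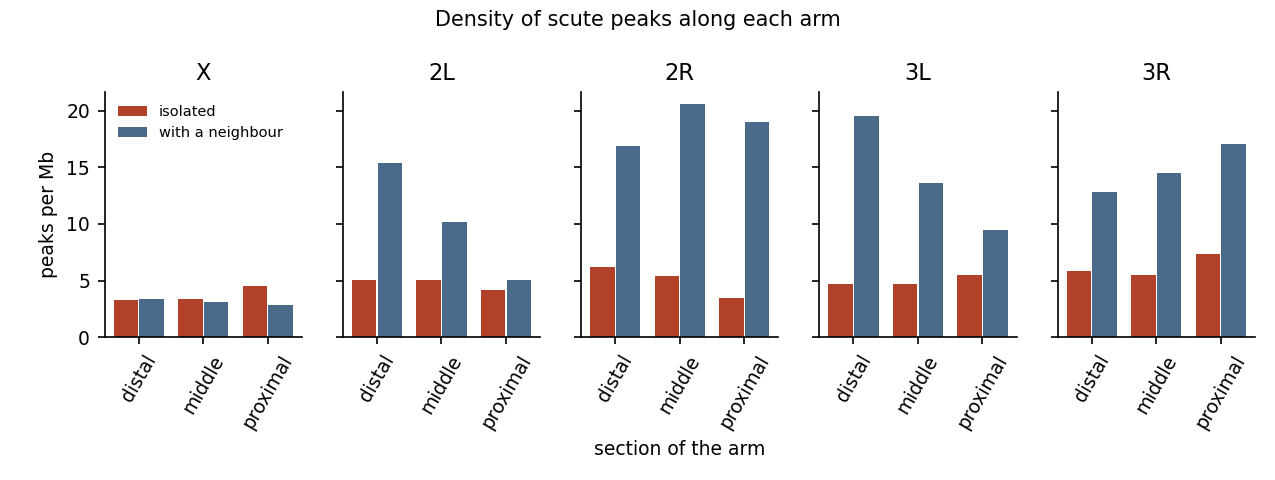
Peaks per Mb in the distal, middle and proximal section of each main arm, each of equal length, isolated peaks in red to the left and peaks with a neighbour in blue to the right of each pair. Isolated densities lie between 3.25 and 7.31 per Mb in all 15 sections, while those of neighboured peaks run from 2.83 to 20.6. The narrower range of isolated densities is in part built in by the rule.

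Within the X, the strong isolated peaks were most frequent in the proximal section. It held 32 isolated peaks, 10 of them with a score of 20 or more (31.3%, exact interval 16.1 to 50.01) and 6 of the 15 highest members of the whole set. The middle section had 5 of 24 (20.8%, 7.13 to 42.2) and the distal section 5 of 23 (21.7%, 7.46 to 43.7). The intervals overlap widely, so a difference between sections of the X could not be shown with these numbers. The proximal share was also the highest among X peaks with a neighbour. These had 5 of 20 (25%) in the proximal section, 5 of 22 (22.7%) in the middle one and 3 of 24 (12.5%) in the distal one. The median scores of isolated X peaks were 13.60, 12.19 and 13.04 in the proximal, middle and distal section. The score matched the genome-wide background in 26 of the 32 proximal peaks and in all 24 middle and 23 distal ones. On the autosome arms, the highest share of scores of 20 or more was in the proximal section of 3R, with 14 of 68 isolated peaks (20.6%, 11.7 to 32.1). The lowest was in the distal section of 2L, with 2 of 38 (5.26%, 0.644 to 17.7). Peaks with a neighbour had 14 of 159 (8.81%) and 12 of 115 (10.4%) in the same sections.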

How the data were processed

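The deposited list gives 1 row per peak with start, end and a score. Per the file headers, the genome is FlyBase release 5. Per the submitters' processing notes, reads passed through BWA, MACS2 and CASAVA (versions 1.7.0.2 and 1.7.0.3). Those sources do not say which threshold was set, whether replicates were pooled or how the input entered the peak calls. The deposited score is not named and was read as −log10 of a p-value. Over the 2136 scores, a Poisson background of 50.144 fragments matched 1582 (74.1%) within 0.01, while the median share over other means was 6.46% and the highest 30.1%. Matching yields a pileup, uncertain by 1 fragment.

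Midpoint distances, widths, shares (exact Clopper-Pearson intervals; differences by Newcombe), medians (order-statistic intervals) and Hodges-Lehmann shifts (rank-based intervals) were computed with Python 3.11.15, numpy 2.4.6, pandas 2.3.3 and scipy 1.17.1, at 95% confidence. The scripts were tested on simulated data. No p-values were computed, since the list has no value per library. Arm spans run to the highest peak end. Peaks were named by rule: the 15 highest members, the highest per arm, the 3 widest, the 5 most remote and the 5 on either side of the limit. Members, comparisons and rules were chosen with earlier results of these data known. Sequences, motifs and genes were not analysed here, since no genome or annotation of release 5 was used.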

Additional observations from a re-analysis of the deposited data

How the results depend on the processing

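Of 86 values under other settings, 2 differences changed sign, 15 kept their sign with an interval that now included 0, and 5 kept it with an interval that now left 0 out. A further 31 counts or shares moved by over 1.5 times (counts) or beyond their exact interval (shares), and 33 values did none of these. The number of isolated peaks was 767 with a limit of 5 kb, 649 after merging, 467 in the highest-scoring 50%, 358 with 25 kb and 336 in the highest-scoring 25% of the list. Their share was 38.2% with 5 kb, 17.8% with 25 kb, 47.9% and 70.6% in the highest-scoring 50% and 25%, and 38.4% after merging peaks within 500 bp. In that order of settings, the share was 63.4%, 43.4%, 82.1% and 95.8% on the X (merging left it close), 39.9%, 22.3%, 46.3%, 65.8% and 42.3% on 2L, and 32.8%, 11.6%, 42.5%, 58.8% and 30.6% on 2R. It was 35.5%, 15.03%, 41.6%, 73.3% and 35.0% on 3L and 37.7%, 16.4%, 48.9%, 74.6% and 39.2% on 3R. A thinner list or a shorter limit leaves a larger share of peaks alone by construction, although the number alone fell in the thinner lists. The score shift was 0.54 (0.09 to 1.03) in the highest-scoring 50% and −0.11 with each chain as 1 unit. The interval of the width shift left 0 out with 5 kb (−14 bp), merging (−15 bp), without the X (−11 bp) and with each chain as 1 unit (−19 bp). Merging counts the gap between joined peaks as width, and a chain was given the median of its peaks. Part of the width shift under these settings can therefore be built in. The difference in matched scores was −0.137 points with 5 kb, 3.89 with 25 kb, 0.928 and 3.15 in the highest-scoring 50% and 25%, 3.69 over all 8 sequences, 2.86 without the X, 1.83 and 3.78 with tolerances of 0.02 and 0.005, and 3.02 against groups of 5 or more. The interval of the difference at a score of 20 included 0 with 5 kb (2.53 points), 25 kb (2.90), the highest-scoring 50% (5.34) and 25% (6.07), merging (2.31), all 8 sequences (2.11) and without the X (2.47). Comparisons by group size and the limit of 20 were chosen after seeing the data. No paired analysis was possible because replicates have no values of their own in the list, and none could be left out. Depth per library is unknown, so its part in how many weak peaks surround a strong one was not examined. The foreseen motif comparison was not run.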

Other observations

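What lay next to an isolated peak follows in part from the rule, since it used the same positions, and no expectation was computed. For 328 of the 578 (56.7%) the nearest peak was itself isolated, for 199 (34.4%) it belonged to a group of 2 to 4 and for 51 (8.82%) to a group of 5 or more. Unbroken runs of successive isolated peaks, with no grouped peak between them, reached 11 peaks on the X, 10 on 2L, 9 on 3L and on 3R, and 6 on 2R. On 2L, 98 of the 107 isolated peaks (91.6%) were in runs of 2 or more, and on 2R 70 of 105 (66.7%). Run lengths depend on the density of grouped peaks, which was highest on 2R.

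The longest run lay on the X from 17720945 to 19473551. Its 11 peaks were spread over 1752 kb, with scores from 10.69 to 75.51 and a median of 16.73. It held 4 of the 15 highest isolated peaks. A second X run of 9 peaks followed from 19559068 to 20923641, with a median score of 12.07 and a highest score of 29.33. The longest run on 2L, from 20066541 to 21660985 with 10 peaks, had a median of 10.22 and a highest score of 26.05. The runs were picked by their length, so these scores describe them without a comparison.

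Thinning the list changed which peaks stood alone. In the highest-scoring 50%, 467 peaks were isolated, and 290 of these (62.1%) were also isolated in the whole list. The other peaks had lost weaker neighbours.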
